A study of Homo sapiens with 12 samples.

Results

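The 36 genes described here encode aminoacyl-tRNA synthetases, the enzymes that join each amino acid to its transfer RNA. They were taken by symbol, 36 of the 26365 genes in the deposited table, by a rule that uses no measured value, although the set was proposed with earlier results of these data known. The set holds 20 cytosolic enzymes, or subunits of them, and 16 mitochondrial enzymes, whose symbols end in 2. All 36 were found, and all 36 passed the filter on low values, 10 normalized counts in 2 or more libraries. The cells were HCC70, an established human breast cancer line of the basal-like type without hormone receptors, carrying either a stable shRNA against LAD1 (shLAD1), a protein of epithelial cell anchorage, or a stable scramble shRNA. Every culture spent a night without serum, so the starved state is the starting point of both kinds of cells. EGF, the ligand of the EGF receptor, was then added at 50 ng/ml for 0, 40 or 240 min, which gave 6 groups of 2 libraries. The later times have no EGF-free counterpart, so EGF and time after the starvation cannot be told apart. A single LAD1 shRNA is named, so an effect of losing LAD1 and one of that shRNA or of those cells cannot be told apart either.

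Cytosolic protein synthesis and the separate protein synthesis inside mitochondria use different sets of synthetases, all encoded in the nucleus and mostly by a separate gene for each compartment. GARS and KARS are exceptions, since each gene serves both compartments and is counted with the cytosolic enzymes here. EPRS joins a glutamyl and a prolyl enzyme in a single protein, and FARSA and FARSB are the catalytic and the second subunit of the cytosolic phenylalanyl enzyme. Several cytosolic enzymes sit together in the multi-synthetase complex, while others are free. Many synthetase genes belong to the amino acid response, in which the transcription factor ATF4 raises genes for amino acid supply when amino acids are short.

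The libraries held 12428618 to 16721013 reads assigned to genes. LAD1 itself was at 5925 and 6406 normalized counts in starved scramble cells and at 1091 and 865 in starved shLAD1 cells, and averaged over the times it was lower in shLAD1 cells by -2.39 ± 0.078 on the log2 scale (SE, limma, adjusted p = 2.28e-06). Of 9 epithelial and basal markers, 9 were present, and of the hormone receptor genes ESR1 and PGR 1 reached 10 normalized counts in a library. Of 10 markers of immune, endothelial and stromal cells, 4 reached 10 normalized counts in a library. All 10 summed to 1018 to 2391 normalized counts over the libraries, nearly all of it from CD68 and COL1A1. The 8 others summed to 8.23 to 26.6 normalized counts, and DCN was at 0 in every library.

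The promoters of MARS2, AARS and TARS2, the members whose RNA changed most after EGF, are shown first. The sequences come from RefSeq (GRCh38.p14, a later build than the hg19 of the files), where 30 of the 36 members matched by symbol. They cover up to 250 bases before the start of the gene, less any bases inside annotated exons. Capitals mark matches to 4 motifs, searched on both strands. These were TGATGNAA, the C/EBP-ATF element that ATF4 binds, CACGTG, the E-box of MYC and its relatives, TGCGCATGC, a site of the mitochondrial gene regulator NRF1, and CCGGAAG, a site of ETS factors.
MARS2, chr2:197705119-197705368, plus strand: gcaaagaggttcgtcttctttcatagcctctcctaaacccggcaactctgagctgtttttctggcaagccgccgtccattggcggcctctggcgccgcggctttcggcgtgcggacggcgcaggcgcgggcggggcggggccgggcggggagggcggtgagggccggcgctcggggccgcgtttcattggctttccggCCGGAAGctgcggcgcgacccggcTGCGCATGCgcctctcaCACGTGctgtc
AARS, chr16:70289544-70289756, minus strand: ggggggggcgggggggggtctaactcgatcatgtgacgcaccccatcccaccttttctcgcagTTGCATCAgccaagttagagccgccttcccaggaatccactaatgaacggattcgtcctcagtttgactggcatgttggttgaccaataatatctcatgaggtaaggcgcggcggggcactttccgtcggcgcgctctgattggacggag
TARS2, chr1:150487169-150487363, plus strand: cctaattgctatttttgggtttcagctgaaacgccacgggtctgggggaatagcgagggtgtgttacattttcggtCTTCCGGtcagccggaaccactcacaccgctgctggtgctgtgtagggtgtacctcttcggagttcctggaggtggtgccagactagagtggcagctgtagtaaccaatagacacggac

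The MARS2 promoter held an ETS match at -52 to -46, an NRF1 match at -28 to -20 and an E-box at -11 to -6, counted from -1 at the last base before the RefSeq start, and these did not overlap. The AARS match TTGCATCA, which is TGATGNAA read from the other strand, lay at -187 to -180. In TARS2 the ETS letters read as CTTCCGG lay at -174 to -168. Over the members with a window, the C/EBP-ATF element was found in 4 of 30 (13.3%, in AARS, GARS, IARS and YARS2), against 3.16% of protein-coding genes and 3.89% of all genes in the same table. The NRF1 letters were in 2 of 30 (6.67%, MARS2 and YARS2), against 2.10% of protein-coding genes. The ETS letters were in 16 of 30 (53.3%), against 14.0% of protein-coding genes. The E-box was in 3 of 30 (10.0%, IARS, EARS2 and MARS2), against 9.73%. FARSA and FARSB, which rose after EGF in both kinds of cells, had no match to any of the 4 motifs. HARS and HARS2 start back to back, 84 bases apart, and share the 2 ETS matches that lie between them. A match of letters is a description of the sequence and not a measured binding site.

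Per kilobase of exon (GENCODE lengths), the median cytosolic member was at 802 normalized counts per kb and the median mitochondrial member at 106. KARS was at the top with 2199 (1759 to 2706 over the 12 libraries), followed by GARS with 2076, AARS with 2060, SARS with 1487, TARS with 1290 and YARS with 1261. The ranges of KARS, GARS and AARS overlapped, so their order did not exceed the spread between libraries. The lowest cytosolic member was HARS at 139 (114 to 182), below IARS2, CARS2, TARS2, RARS2, SARS2 and VARS2. IARS2, the mitochondrial isoleucyl enzyme, was the highest mitochondrial member at 699 (591 to 797), and LARS2 the lowest at 47.5 (39.4 to 54.3). The lowest value of any member in any library was 104 normalized counts, of MARS2.

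**Figure D1:**
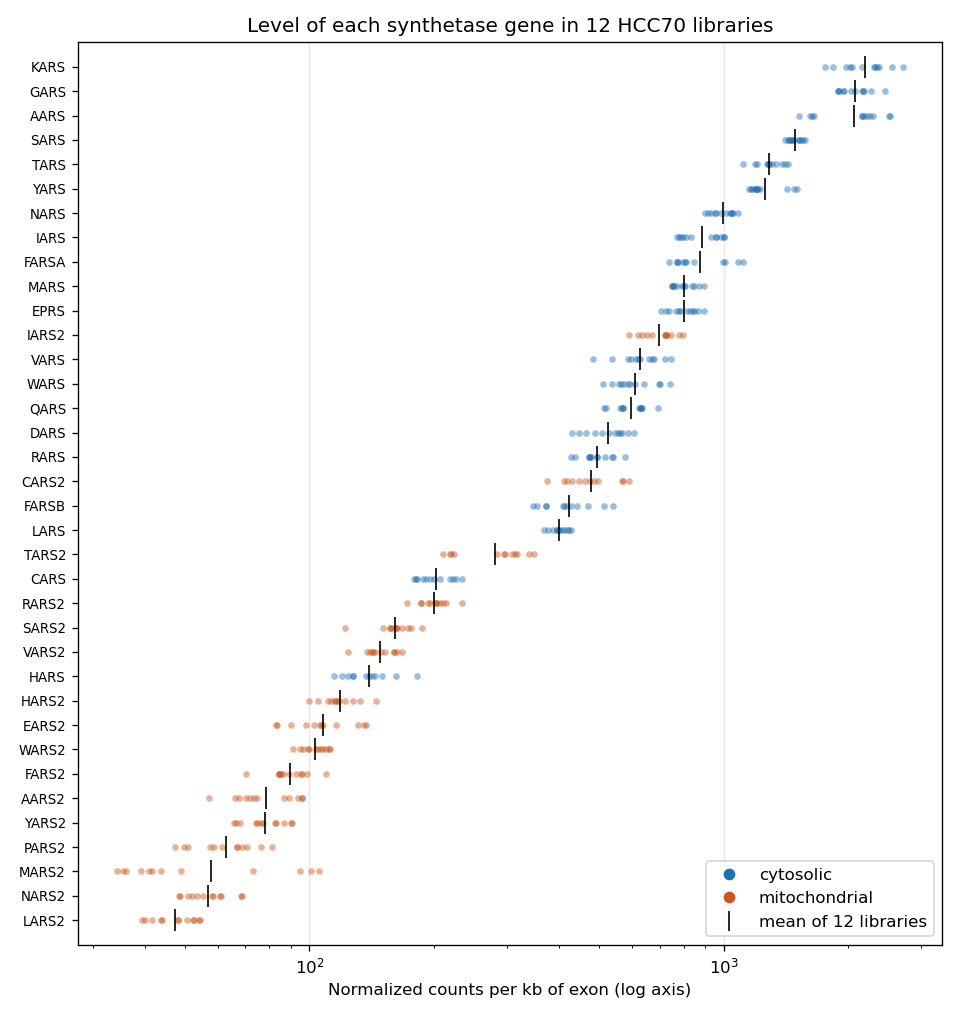
Normalized counts per kb of exon (log axis) of each of the 36 synthetase genes, ordered by their mean; each point is 1 of the 12 libraries, the tick is the mean, and colour gives the compartment. Cytosolic members hold the top from KARS at 2199 and mitochondrial members the bottom down to LARS2 at 47.5, and the compartments mix in between, from IARS2 at 699 to the cytosolic HARS at 139.

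Among the 13 amino acids with a single gene for each compartment, the mean ratio of the cytosolic to the mitochondrial gene per kb was highest for alanine, at 26.4 (AARS to AARS2). For histidine it was 1.18, with 0.852 to 1.43 over the libraries, and HARS was above HARS2 in 10 of 12. For cysteine CARS was at 0.432 of the level of CARS2, with 0.312 to 0.533 over the 12 libraries, so CARS2 was higher in every library, and for the other pairs the cytosolic gene was higher in all 12. Some of these levels carry overlap with other genes: 83.1% of SARS2 exon bases are shared with other annotated genes, among them MRPS12, and HARS and HARS2 share 9.49% and 14.2% of their exon bases with each other. The library kit does not mark strand, so reads from such overlaps cannot be told apart.

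At 40 min of EGF the synthetase genes were near their starved levels. By limma's moderated test with Benjamini-Hochberg adjustment over 13950 genes, 0 of 36 were called in scramble cells, where 0.853% of all genes were called, and 0 of 36 in shLAD1 cells, where the background was 1.04%. The same count was 0 in edgeR and in DESeq2, and 1 member in each kind of cells, PARS2, had an unadjusted p under 0.05. PARS2, the mitochondrial prolyl enzyme, was at 190.5 and 166 normalized counts in starved scramble cells and at 138 and 119 at 40 min. In shLAD1 cells it was at 157 and 157 and then at 117 and 111. Its difference was -0.46 ± 0.16 in both kinds of cells (SE, limma), with adjusted p = 0.624 in scramble and 0.562 in shLAD1 cells. The 40 min libraries were below the starved ones in each kind, and the test over all genes did not call it. In the same cells MYC, a growth regulator of the early EGF response, rose by 1.19 ± 0.14 in scramble and 1.63 ± 0.14 in shLAD1 cells (adjusted p = 0.00315 and 0.000321).

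At 240 min a few synthetase genes had changed, in both directions, and most had not passed the test. In scramble cells 3 of 36 rose (FARSA, FARSB and MARS2), against 11.7% of all genes, and 3 fell (AARS, CARS and TARS2), against 8.44%. In shLAD1 cells the same 3 genes rose, against a background of 10.8%, and AARS and TARS2 fell, against 7.76%. The member counts in either direction were thus no higher than the share of all genes would give. The cytosolic members had a median log2 change of 0.011 in scramble and 0.054 in shLAD1 cells, and the mitochondrial members one of -0.113 and -0.076, beside -0.017 and -0.008 for all genes tested.

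MARS2 makes the methionyl-tRNA of mitochondria, which after formylation also starts their proteins. It was at 104 and 148 normalized counts in starved scramble cells, at 126 and 132 at 40 min and at 286 and 305 at 240 min. In shLAD1 cells the values were 109 and 118, 124 and 107, and 220.0 and 318 in the same order. The 4 libraries at 240 min lay above the other 8, and MARS2 rose by 1.25 ± 0.21 in scramble and 1.22 ± 0.21 in shLAD1 cells (SE, limma, adjusted p = 0.00355 and 0.00443), or 2.37-fold and 2.32-fold. Its cytosolic counterpart MARS was at 2324 and 2528, 2307 and 2602, and 2177 and 2341 in scramble cells and at 2434 and 2196, 2463 and 2199, and 2244 and 2179 in shLAD1 cells, and was not called. The count of MARS was therefore 17.1 to 22.4 times that of MARS2 at 0 min and 6.85 to 10.2 times at 240 min, over 4 libraries each.

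FARSA and FARSB, whose products form the cytosolic phenylalanyl enzyme together, both rose. FARSA was at 1625 and 1688 normalized counts in starved scramble cells, 1694 and 1774 at 40 min and 2111 and 2331 at 240 min, and in shLAD1 cells at 1615 and 1611, 1545 and 1666, and 2085 and 2258. FARSB was at 1376 and 1408, 1444 and 1384, and 1736 and 1818 in scramble cells, and at 1254 and 1196, 1170.1 and 1256, and 1495 and 1582 in shLAD1 cells. For each gene the 4 libraries at 240 min were above the other 8. The rise was 0.42 ± 0.076 in scramble and 0.43 ± 0.076 in shLAD1 cells for FARSA (adjusted p = 0.00521 and 0.00527). FARSB rose by 0.35 ± 0.069 and 0.33 ± 0.069 (adjusted p = 0.00757 and 0.0114), and left its call in scramble cells without the second 240 min library or the first starved one (up to adjusted p = 0.0581), and in shLAD1 cells without the second starved or the second 240 min library (up to 0.0745). FARS2, the single mitochondrial phenylalanyl enzyme, was at 189 and 167, 183 and 195, and 167 and 139 in scramble cells and at 217 and 167, 171 and 169, and 188 and 176 in shLAD1 cells. Its groups overlapped and it was not called.

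AARS, the alanyl enzyme and by count the most abundant member in starved cells, fell. It was at 7831 and 8766 normalized counts in starved scramble cells, at 7517 and 8705 at 40 min and at 5278 and 5697 at 240 min. In shLAD1 cells it was at 7583 and 7968, then 7520.5 and 7697, then 5612 and 5760.2. All 4 libraries at 240 min were below the other 8, with a change of -0.60 ± 0.087 in scramble and -0.45 ± 0.087 in shLAD1 cells (adjusted p = 0.00173 and 0.0076), or 1.51-fold and 1.37-fold lower. Without the second starved shLAD1 library the fall in shLAD1 cells was not called (adjusted p = 0.0509). AARS2, its mitochondrial counterpart, was at 334 and 369, 287 and 362, and 260.0 and 277 in scramble cells and at 255 and 343, 283 and 369, and 221 and 270.1 in shLAD1 cells. Its libraries at 240 min overlapped the others, and it was not called (-0.39 ± 0.19 and -0.28 ± 0.19).

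TARS2, the mitochondrial threonyl enzyme, fell as well. Its values were 882 and 861 at 0 min, 827 and 789.9 at 40 min and 624 and 586 at 240 min in scramble cells, and 873 and 972, 822 and 947, and 612 and 610.3 in shLAD1 cells. The libraries at 240 min lay below the other 8, and the fall was -0.53 ± 0.090 in scramble and -0.59 ± 0.090 in shLAD1 cells (adjusted p = 0.00389 and 0.00245). TARS, the cytosolic threonyl enzyme, was at 5782 and 5869.9 in starved and 6393 and 6303 in 240 min scramble cells, and at 5418 and 5065 and then 5821 and 6079 in shLAD1 cells. The ratio of TARS to TARS2 counts was 5.21 to 6.82 at 0 min and 9.51 to 10.8 at 240 min. For methionine the mitochondrial gene thus gained on the cytosolic one, and for threonine it lost.

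**Figure D2:**
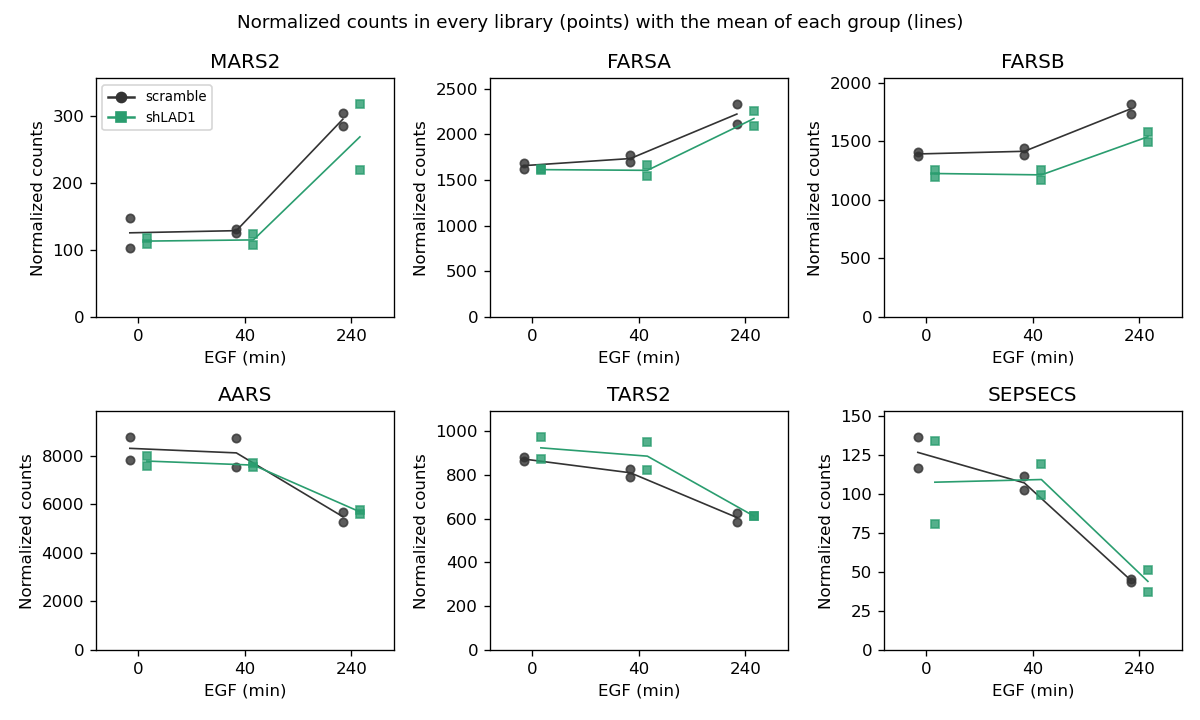
Normalized counts against EGF time (0, 40 and 240 min) of the 5 synthetase genes called in both kinds of cells and of SEPSECS, an enzyme of selenocysteine charging; points are libraries, lines join the means of 2, and the times are evenly spaced, not to scale. MARS2, FARSA and FARSB stay level to 40 min and are higher at 240 min, where AARS, TARS2 and SEPSECS are lower.

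CARS, the cytosolic cysteinyl enzyme, was called in scramble and not in shLAD1 cells. It was at 694 and 683 normalized counts in starved, 704 and 727 in 40 min and 564 and 597 in 240 min scramble cells, a change of -0.25 ± 0.070 (adjusted p = 0.0369). That call was lost in each of the 4 fits that left out a library (up to adjusted p = 0.172). In shLAD1 cells it was at 612 and 586, 624 and 644, and 569 and 558, with a change of -0.09 ± 0.070 that was not called. The difference between these changes was 0.16 ± 0.099 and was not called either. CARS2 was at 912 and 810.2, 893 and 840.0, and 1069 and 1112 in scramble cells and at 773 and 786, 704 and 869.7, and 936 and 1077 in shLAD1 cells. The 4 libraries at 240 min were above the other 8, but neither change passed the test (0.34 ± 0.11 and 0.37 ± 0.11, adjusted p = 0.0648 and 0.0559). The CARS count was 0.746 to 0.843 of the CARS2 count at 0 min and 0.519 to 0.608 at 240 min.

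**Figure D3:**
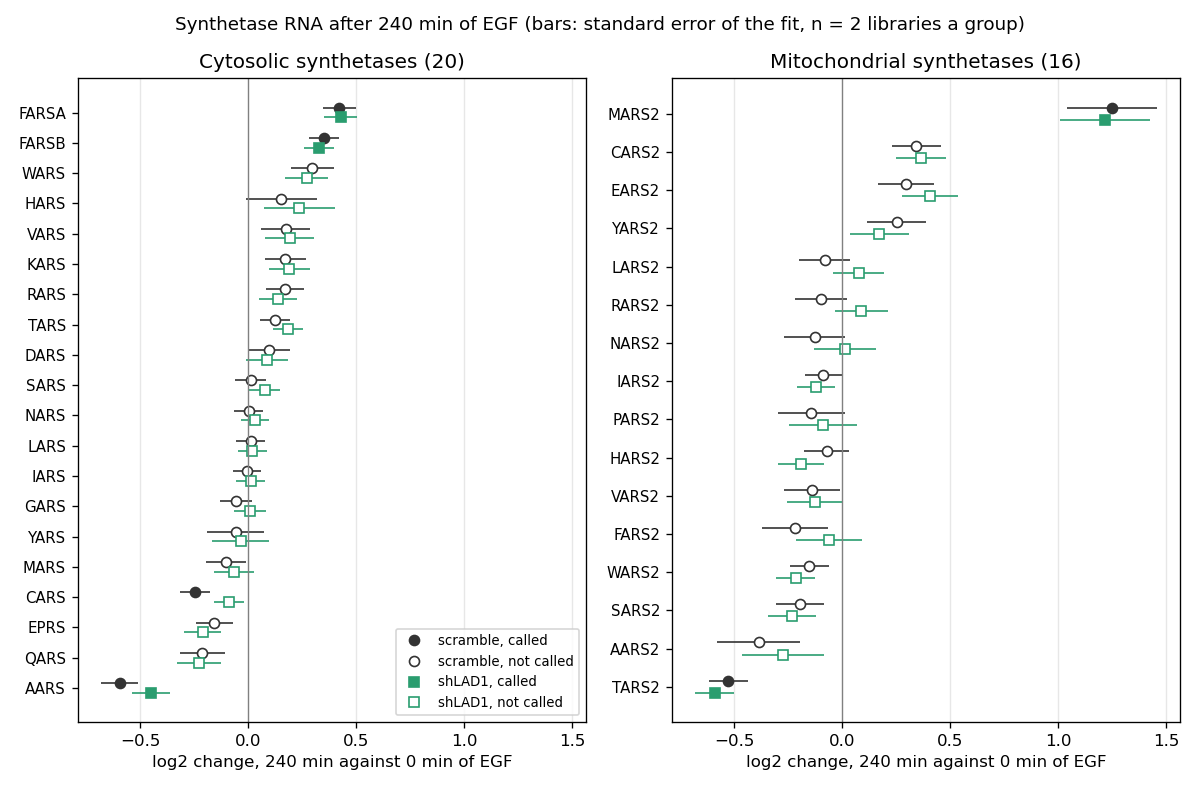
Log2 change at 240 against 0 min of EGF, on the log2(normalized count + 1) scale, of the 20 cytosolic (left) and 16 mitochondrial (right) genes; circles are scramble and squares shLAD1 cells, filled where called, with the SE of the fit. Most members lie near 0, and MARS2 stands at 1.25 and 1.22.

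Averaging the change over both kinds of cells, a comparison added after the data were seen, gave 12 called members of 36. The 7 that rose were FARSA, FARSB, TARS, WARS, CARS2, EARS2 and MARS2, against 18.7% of all genes, and the 5 that fell were AARS, CARS, EPRS, QARS and TARS2, against 16.3%. WARS, the tryptophanyl enzyme, was at 2442 and 2396 normalized counts in starved, 2527 and 2368 in 40 min and 2977 and 2966 in 240 min scramble cells. In shLAD1 cells it was at 2594 and 2279.6, 2498 and 2166, and 3155 and 2729. The 4 libraries at 240 min lay above the others, with an average rise of 0.28 ± 0.070 (adjusted p = 0.0127). EARS2 charges glutamate in mitochondria, on the glutamine tRNA too, and was at 526 and 466, 489 and 480.1, and 593 and 622 in scramble cells. In shLAD1 cells EARS2 was at 379.9 and 446, 377 and 409, and 484 and 616, so its groups overlapped across the kinds of cells, and the average rise was 0.35 ± 0.092 (adjusted p = 0.0162).

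EPRS and QARS, both of the multi-synthetase complex, fell by less. EPRS was at 4082 and 4344, 3933 and 4505, and 3638 and 3922 in scramble cells and at 4153 and 4220.4, 4247 and 3857, and 3699 and 3534 in shLAD1 cells, an average fall of -0.18 ± 0.060 (adjusted p = 0.0399). QARS was at 1834 and 1809, 1827 and 1817, and 1648 and 1501 in scramble cells and at 1641 and 2007, 1647 and 1821, and 1484 and 1619.9 in shLAD1 cells, an average fall of -0.22 ± 0.073 (adjusted p = 0.0436). The calls were fragile: EPRS lost its call in all 8 fits that left out a library, QARS and TARS in 7 and CARS in 6, and EARS2 in 3. Within each kind of cells both 240 min libraries were below the 4 others for EPRS and for QARS. WARS2 was at 316 and 318, 282 and 305, and 297 and 273 in scramble cells, at 303 and 310.4, 281 and 294, and 259 and 269 in shLAD1 cells, and was not called (-0.18 ± 0.064, adjusted p = 0.0515). SARS2 was at 384 and 413, 389 and 357, and 347 and 349.6 in scramble cells, at 357 and 346, 361 and 369.9, and 333 and 269 in shLAD1 cells, and was not called (-0.21 ± 0.078, adjusted p = 0.0616). With the replicate number as a block both were called lower in the average (adjusted p = 0.0366 for WARS2 and 0.0359 for SARS2).

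Grouped by role, the 8 enzymes of the multi-synthetase complex gave 0 calls at 240 min in either kind of cells, and in the average EPRS and QARS. Beside the 11.7% of all genes higher and 8.44% lower in scramble cells, these counts are descriptions, and the groups were not tested against each other. Of the 12 free cytosolic enzymes 4 were called in scramble cells (2 higher, 2 lower), 3 in shLAD1 cells (2 higher, 1 lower) and 6 in the average (4 higher, 2 lower), where 18.7% and 16.3% of all genes were. By catalytic fold, 1 of 9 class I and 3 of 10 class II cytosolic enzymes were called in scramble cells, EPRS counted in neither. GARS and KARS, which serve both compartments, were not called at 240 min. GARS was at 5737 and 6006, 5757 and 6509, and 5517 and 5772 in scramble cells, and at 5149 and 5004, 5388 and 5038, and 5013 and 5192 in shLAD1 cells. KARS was at 5722 and 5638, 5248 and 5626, and 6210.5 and 6589 in scramble cells, and at 4469 and 4919, 4283 and 4819, and 4965 and 5764 in shLAD1 cells. Across the 12 libraries the compartments differed in level, while members that rose and members that fell were found in each.

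**Figure D4:**
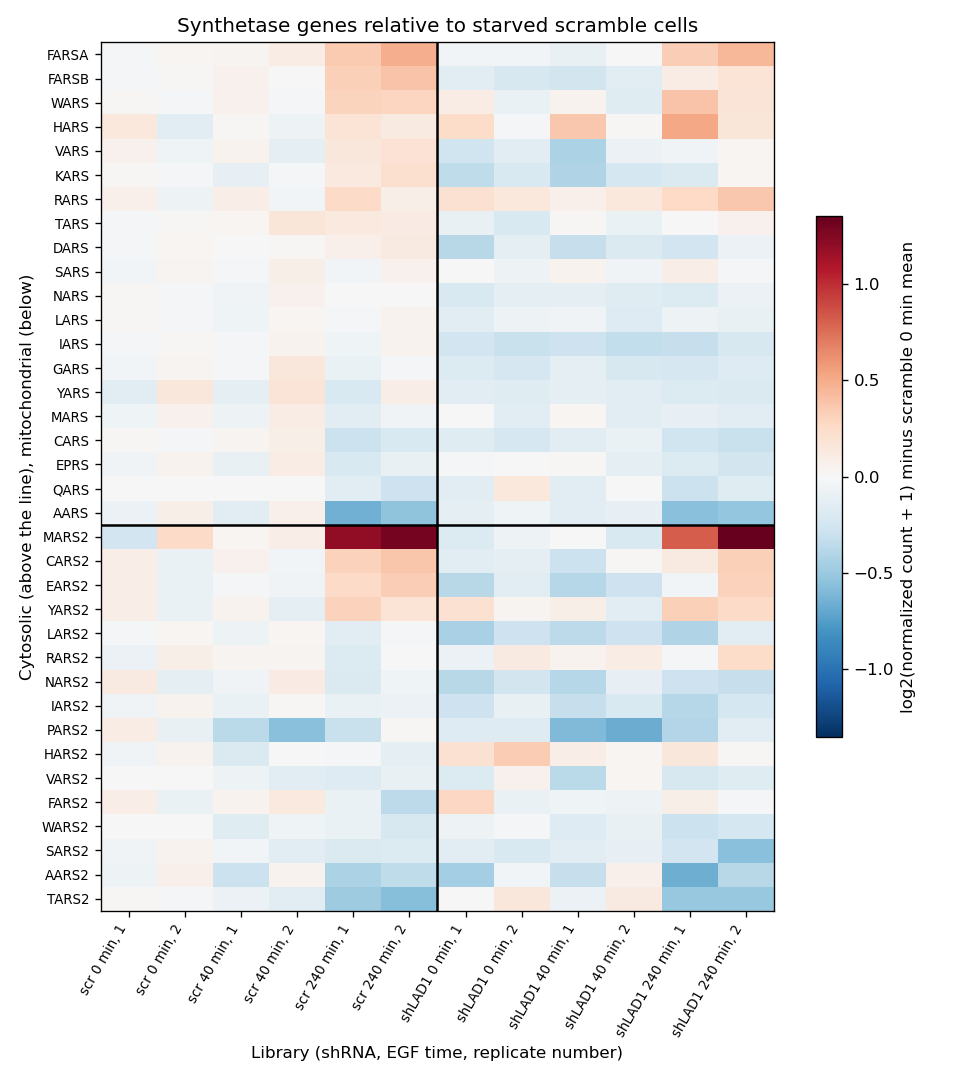
Each synthetase gene (rows, cytosolic above the line) in each library (columns, scramble left, shLAD1 right), as log2(normalized count + 1) minus the mean of the 2 starved scramble libraries. MARS2 is the darkest red in the 4 libraries at 240 min, AARS and TARS2 are blue there, and rows such as IARS are blue throughout the 6 shLAD1 libraries.

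The 240 min libraries were also set against those at 40 min. In scramble cells FARSA, FARSB and MARS2 rose (10.2% of all genes did) and AARS, CARS and TARS2 fell (8.34%). In shLAD1 cells FARSA, FARSB, MARS2 and EARS2 rose (8.84%) and AARS and TARS2 fell (7.56%). MARS2 rose by 1.19 ± 0.21 in scramble and 1.20 ± 0.21 in shLAD1 cells (adjusted p = 0.00498 and 0.00548), and EARS2 by 0.48 ± 0.13 in shLAD1 cells (adjusted p = 0.0363). This comparison shares its 240 min libraries with the one before. Counted without a test, FARSA, FARSB, WARS, CARS2 and MARS2 had all 4 libraries at 240 min above the 8 others, 5 of 36 against 12.3% of all genes, and AARS and TARS2 had all 4 below, 2 of 36 against 9.96%.

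Libraries that share a replicate number deviated from their group means together, so the fit was repeated with that number as a block. In scramble cells it then called 5 members higher (18% of all genes) and 4 lower (14.7%), adding CARS2, WARS and AARS2. In shLAD1 cells it called 8 higher (17.2%) and 2 lower (13.3%), adding KARS, EARS2, CARS2, TARS and WARS. In the average over both kinds of cells it called 19 members against 12, with 11 higher (24.5% of all genes) and 8 lower (22.5%), adding HARS, KARS, RARS, AARS2, SARS2, WARS2 and YARS2. With a separate block within each shRNA the counts were 10 higher (25.3%) and 6 lower (22.9%) in scramble cells, and 11 higher (24.7%) and 7 lower (21.6%) in shLAD1 cells. The genes called at 240 against 0 min without a block all kept their calls in both block fits. Scaling to total counts moved the median of all genes in scramble cells to -0.14 and called 1143 genes higher and 2200 lower, against 1635 and 1178. On that scale 3 members were higher and 5 lower in each kind of cells, with EPRS and QARS added to those that fell in both. The medians there, -0.117 for the cytosolic and -0.241 for the mitochondrial members in scramble cells, stood beside the -0.14 of all genes.

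Enzymes and factors that work beside the synthetases mostly stayed outside the calls. Of 12 tested accessory genes of tRNA charging, 1 fell in scramble cells, SEPSECS, which makes selenocysteinyl-tRNA. It was at 117 and 137 normalized counts in starved, 112 and 103 in 40 min and 43.9 and 45.6 in 240 min scramble cells, and at 81.1 and 134, 99.4 and 119, and 51.2 and 37.0 in shLAD1 cells. SEPSECS was lowest in the 4 libraries at 240 min and fell by -1.48 ± 0.26 in scramble and -1.24 ± 0.26 in shLAD1 cells (adjusted p = 0.00413 and 0.0102). AIMP2, a scaffold of the multi-synthetase complex, rose by 0.24 ± 0.071 in shLAD1 cells (adjusted p = 0.0468). Of 12 mitochondrial translation factors 3 fell in scramble cells: the release factor MTRF1 (-0.81 ± 0.20), the initiation factor MTIF3 (-0.38 ± 0.084) and C12orf65 (-0.53 ± 0.16). In shLAD1 cells 1 of these 12 rose. Beside these counts, 11.7% of all genes rose and 8.44% fell in scramble cells, and 10.8% and 7.76% in shLAD1 cells. The lists were not tested as sets. Of 5 cytosolic elongation factors 0 were called in either kind of cells by limma, with 0 also at an unadjusted p under 0.05.

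ATF4 pathway genes outside the synthetases included larger falls. Of 12 synthetases listed as ATF4 targets, 0 rose and 2 fell in scramble cells (AARS and CARS), and 0 rose and 1 fell in shLAD1 cells. Of 29 other ATF4 pathway genes, 2 rose and 8 fell in scramble cells and 3 rose and 6 fell in shLAD1 cells. Of all genes 11.7% rose and 8.44% fell in scramble cells, and 10.8% and 7.76% in shLAD1 cells. CHAC1, which degrades glutathione, fell by -2.75 ± 0.22 and -1.84 ± 0.22, and SESN2, a leucine sensor, by -2.19 ± 0.16 and -1.47 ± 0.16 (adjusted p = 0.000128, 0.00078, 0.000107 and 0.000611). DDIT3, a stress transcription factor, fell by -1.06 ± 0.17 and -0.94 ± 0.17 (adjusted p = 0.00244 and 0.00485), and PPP1R15A, which reverses the block of translation, rose by 0.68 ± 0.13 and 0.75 ± 0.13 (adjusted p = 0.0065 and 0.00423). ATF4 was at 5193 and 5361 in starved, 6031 and 6561 in 40 min and 4672 and 4377 in 240 min scramble cells, and its change at 240 min was not called (-0.22 ± 0.089, adjusted p = 0.116; -0.11 ± 0.089, adjusted p = 0.454 in shLAD1 cells). ASNS, the asparagine synthetase, was not called either (-0.36 ± 0.14 and -0.22 ± 0.14, adjusted p = 0.0982 and 0.31). MARS shares 2.13% of its exon bases with its neighbour DDIT3. MYC, which binds E-boxes, was still higher at 240 min, by 1.07 ± 0.14 and 1.45 ± 0.14 (adjusted p = 0.000878 and 0.000296). A link between MYC and any synthetase gene was not tested.

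Averaged over the 3 times, 9 of 36 members were lower in shLAD1 than in scramble cells, against 9.3% of all genes, and 0 were higher, against 9.25%. The cytosolic members had a median difference of -0.113 and the mitochondrial members one of -0.132, with -8.79e-07 for all genes tested. IARS, the isoleucyl enzyme of the multi-synthetase complex, was at 4586 and 4716, 4586 and 4807, and 4462 and 4806 normalized counts in scramble cells at 0, 40 and 240 min. In shLAD1 cells it was at 3886 and 3771, 3831 and 3688, and 3735 and 3987. All 6 shLAD1 libraries were below all 6 scramble libraries, and the difference was -0.29 ± 0.038 (adjusted p = 0.00168). For all 9 called members this fit counts the 3 times of an shRNA and replicate number as separate, though such libraries deviated together. On means over the times the IARS difference was -0.29 ± 0.070 (limma, adjusted p = 0.267). In bulk RNA, fewer cells with a transcript and less of it per cell cannot be told apart.

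DARS, the aspartyl enzyme, was at 1289 and 1345, 1309.6 and 1330.1, and 1386 and 1433 in scramble cells and at 1014 and 1198, 1058 and 1152, and 1099 and 1246 in shLAD1 cells. The 6 shLAD1 libraries lay below the 6 others, a difference of -0.26 ± 0.056 (adjusted p = 0.0133). KARS ranged from 5248 to 6589 in scramble and from 4283 to 5764 in shLAD1 cells, where the highest library, at 240 min, overlapped the scramble range, and differed by -0.26 ± 0.054 (adjusted p = 0.0112). GARS ranged from 5517 to 6509 and from 5004 to 5388, with no overlap, and differed by -0.20 ± 0.043 (adjusted p = 0.0148). FARSB, with the values given above, was lower by -0.20 ± 0.040 (adjusted p = 0.00914) while FARSA was not called. The groups of NARS, the asparaginyl enzyme, did not overlap either, at 3133 to 3365 and 2796 to 3052, with a difference of -0.15 ± 0.038 (adjusted p = 0.025). CARS was called with -0.14 ± 0.041 (adjusted p = 0.0443), a call lost in all 12 fits that left out a library, in DESeq2 and without the filter on low values.

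Of the mitochondrial members IARS2 and LARS2 were lower. IARS2 was at 2656 and 2838, 2588 and 2775, and 2574 and 2595 in scramble cells and at 2255 and 2563, 2211 and 2387, and 2104 and 2321 in shLAD1 cells, a difference of -0.21 ± 0.050 (adjusted p = 0.0191). LARS2, the leucyl enzyme, was at 248 to 279 in scramble and 202 to 247 in shLAD1 cells and differed by -0.28 ± 0.069 (adjusted p = 0.0225). For both genes all 6 shLAD1 libraries were below all 6 scramble libraries. In all, 6 members were so placed (DARS, GARS, IARS, NARS, IARS2 and LARS2), against 3.99% of all genes, and 0 had the opposite order, against 3.16%. For isoleucine the separate genes of both compartments were called.

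**Figure D5:**
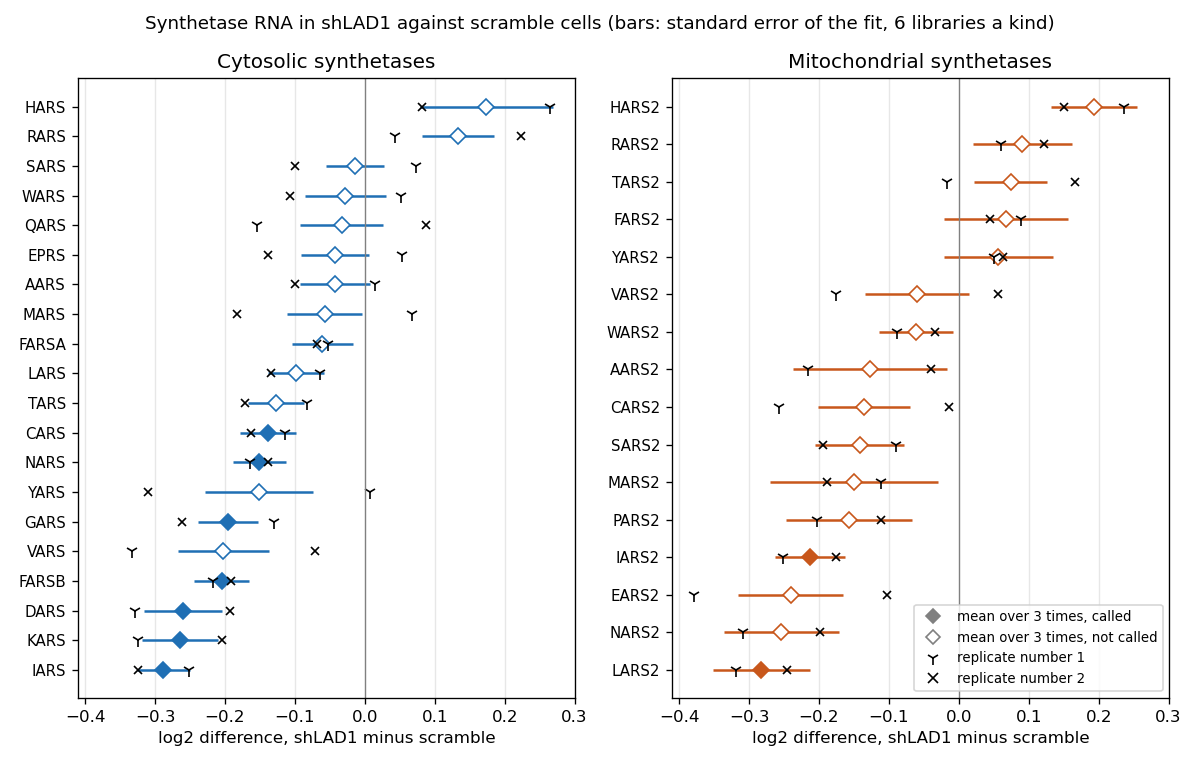
Log2 difference between shLAD1 and scramble cells, averaged over 3 times, of the cytosolic (left) and mitochondrial (right) genes; diamonds are the fit with its SE, filled where called, and the black marks are the difference among libraries numbered 1 and among those numbered 2. The 9 filled diamonds lie between -0.29 (IARS) and -0.14 (CARS), and 21 members are below 0 for both numbers.

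Taken separately by replicate number, 21 of 36 members were lower in shLAD1 cells for both numbers, 6 were higher for both and 9 had opposite signs, with medians of -0.101 and -0.109. With the replicate block 13 members were lower (17.9% of all genes) and 3 higher (18.2%), the latter being HARS, RARS and HARS2. Averaging the 3 times of each shRNA and replicate number, a choice made after the data were seen, left 2 means against 2. It called 0 members of 36 and 0% of all genes. IARS, DARS, FARSB, GARS and KARS kept their calls in all 12 fits that left out a library, while CARS lost its call in 12, NARS in 7, LARS2 in 6 and IARS2 in 4. IARS2 and LARS2 both lost theirs when the second starved, 40 min or 240 min scramble library, or the first 240 min shLAD1 library, was left out. At the single times 0 members were called in limma, where 1.56% (0 min), 1.65% (40 min) and 0.953% (240 min) of all genes were. DESeq2 called IARS at each time, edgeR at 40 min, and the block fit 4, 6 and 4 members. The shares of all genes those fits called at the single times are not given here, so these counts describe the members only. At 0 min 9 members had an unadjusted p under 0.05 (15.7% of all genes), at 40 min 10 (16.1%) and at 240 min 5 (15.1%). The authors' deposited table, whose fold changes match shLAD1 against scramble at 0 min, gave an adjusted p under 0.05 for 1 of 36 members, IARS (0.0106), and 27 of 36 fold changes below 0. Of the 13909 genes with an adjusted p in the authors' deposited table, 3.56% had one under 0.05 and 49.1% were below 0.

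Other genes differed between the same libraries. CD68, a macrophage marker, was higher in shLAD1 cells by 0.70 ± 0.080 and COL1A1, a collagen of stromal cells, by 1.26 ± 0.097 (adjusted p = 0.000842 and 0.000152), while the 8 remaining markers of other cells stayed at a sum of at most 26.6. Their part in the synthetase differences was not tested. Of the 29 other ATF4 pathway genes 1 was higher and 7 lower in shLAD1 cells, among them ASNS (-0.27 ± 0.080, adjusted p = 0.0461). PSAT1 of serine synthesis (-0.67 ± 0.043) and the amino acid carrier SLC7A5 (-0.51 ± 0.049), both named after their values were seen, were lower too. Of the 12 ATF4-listed synthetases 4 were lower and 0 higher, against 9.3% and 9.25% of all genes. ATF4 itself was not called (-0.14 ± 0.052, adjusted p = 0.0985).

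Whether LAD1 shRNA changed the response to EGF was tested as the difference between the responses. By limma 0 of 36 members were called at 40 min and 0 at 240 min, as were 0% of all genes at either time, and 0 members had an unadjusted p under 0.05. edgeR, DESeq2 and both block fits also called 0 members. The differences at 240 min lay between -0.12 and 0.19, and at 40 min between -0.25 and 0.25. For the genes that changed most they were -0.03 ± 0.30 for MARS2, 0.14 ± 0.12 for AARS and -0.06 ± 0.13 for TARS2 (SE, at 240 min). With a block within each shRNA the difference for AARS was 0.14 ± 0.056 (limma, unadjusted p = 0.0171, adjusted p = 0.573). A difference in response was thus not detected for any member, which does not show that the responses were alike.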

How the data were processed

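Per the labels, poly-A RNA of HCC70 cells was sequenced in 12 libraries. STAR, DESeq2 and build hg19 are named in the submitters' processing notes, with versions, annotation and strand setting not given in the sources used here. As deposited, the signal columns of the authors' table are counts divided by size factors. Whole reads, to within 0.001, were recovered for 100% of values (12428618 to 16721013 reads per library). It also holds, per the file headers, the authors' log2 fold change, a Wald score and p-values of an unnamed contrast, which lay within 0.01 of shLAD1 against scramble at 0 min for 99.982% of 11243 genes.

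limma-trend (3.58.1, R 4.3.3, robust) was fitted on log2(normalized count + 1) with 6 group means over all libraries, for 13950 genes with at least 10 normalized counts in 2 libraries. Calls had an adjusted p under 0.05 within a comparison, with 12 comparisons planned. The log scale with its pseudocount understates changes of low genes. Alternatives were other scalings, pseudocounts and filters, blocks, DESeq2 (1.42.0), fewer groups and each library left out. edgeR (4.0.16) on the recovered reads called 1590 genes higher and 1194 lower at 240 min in scramble cells. On simulated counts for that comparison (13779 genes) the fit recovered 52 of 99 genes changed by 1 on the log2 scale. Of genes changed by 0.5 it recovered 11 of 100. For the shRNAs averaged over times (13758 genes) it recovered 80 of 99 and 42 of 99. Far fewer genes were changed there than were called in the data, which makes the adjusted threshold stricter. They were drawn at random from all genes kept, not from the members. The simulated libraries were independent, while real libraries with the same shRNA and replicate number deviated together. The recovery between the shRNAs therefore does not carry over to the data.

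Replicate numbers come from the labels, which do not say that they mark separate cultures, so p-values measure the spread between libraries, which may be technical. Same-numbered libraries deviated together (r of 0.645 to 0.734 over 6 pairs of groups with the same shRNA, 0.247 to 0.307 over 9 pairs with different shRNAs). Replicates of a group differed by more than sampling noise. Chi-square per degree of freedom was 8.59 to 11.3 in the scramble groups and 19.1 to 21.3 in the shLAD1 groups. The main fit used a spread shared by all 6 groups.

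Members and gene lists were chosen with earlier results of these data known. Values in every library are given for the 5 lowest and 3 highest changes at 240 min in each compartment, for up to 6 members called between shRNAs and for GARS, KARS and EPRS; of other lists up to 4 genes by adjusted p are named, and ATF4, DDIT3, ASNS, MYC and LAD1 always.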

Additional observations from a re-analysis of the deposited data

How the results depend on the processing

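For the 16 synthetase genes with the lowest and highest changes at 240 min, no change against 0 min turned its direction in the other scalings, pseudocounts, filters, blocks, edgeR or DESeq2. Of these 352 checks, 324 stayed on their side of the threshold, 26 gained a call and 2 lost it. Fits on only the groups compared or with a library left out are not among these checks. At 240 against 0 min in scramble cells, 4 cytosolic and 2 mitochondrial members were called; the replicate block within each shRNA gave 11 and 5, the replicate block 4 mitochondrial, and leaving out a library 2 to 3 and 2 to 2. In shLAD1 cells the counts were 3 and 2, with the replicate block 6 and 4, with the block within each shRNA 11 and 7, with only the groups compared 0 and 0, with total-count scaling 5 cytosolic, and with a library left out 1 to 4 and 2 to 3. At 240 against 40 min in scramble cells (4 and 2) the block within each shRNA gave 13 and 7, only the groups compared 4 mitochondrial, and leaving out a library 1 to 3 and 1 to 2. In shLAD1 cells (3 and 3) the replicate block gave 5 and 6, the block within each shRNA 10 and 8, only the groups compared 0 and 0, and leaving out a library 1 to 3 and 2 to 4. The 12 calls averaged over both kinds of cells became 19 with the replicate block, 24 with the block within each shRNA and 7 to 10 with a library left out, lowest without the second starved scramble library. Between the shRNAs (7 and 2) the replicate block gave 11 and 5, and the means per shRNA and replicate number 0 and 0. Leaving out a library gave 5 to 7 and 0 to 3. The libraries that lowered a count most were the first starved and the second 240 min scramble library (2 of 4 cytosolic calls), the second starved shLAD1 library (1 of 3), and, against 40 min, the second 40 min scramble library (1 of 4) and the second 240 min shLAD1 library (1 of 3). The fits on only the groups compared have fewer samples in both kinds of cells. Those fits still called AARS, TARS2, MARS2, FARSA and FARSB in scramble cells, and 0 members in shLAD1 cells. Where a setting moved a count the cause was not tested. Between the shRNAs at single times the replicate block raised the counts from 0 to 4, 6 and 4 at 0, 40 and 240 min. At 240 against 0 min both blocks raised the share of all genes called as well, as given above. The replicate block did so in the averages too, so higher counts of members do not set them apart. At 40 against 0 min and for the differences of the responses 0 members were called in each setting. The simulated data had few changed genes and independent libraries. There 11 of 100 changes of 0.5 on the log2 scale were recovered for scramble cells at 240 min. For the shRNAs averaged over times the count was 42 of 99.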

Other observations

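RARS2, the mitochondrial arginyl enzyme, was at 338 and 376 normalized counts in starved and 313 and 355 in 240 min scramble cells, and at 339 and 389 and then 351 and 424 in shLAD1 cells. LARS2 was at 269 and 279 and then 248 and 271 in scramble cells, and at 202 and 226 and then 206 and 247 in shLAD1 cells. Each thus had mean changes of opposite sign in the scramble and shLAD1 cells. The differences between these changes, 0.19 ± 0.17 for RARS2 and 0.16 ± 0.17 for LARS2 (SE, limma), were not called. GARS, IARS and NARS2 also had changes of opposite sign, and none of these changes was called. HARS2 was at 283 to 334 in the 6 scramble and at 327 to 411 in the 6 shLAD1 libraries, the largest positive difference among the members (0.19 ± 0.061, adjusted p = 0.0574), and HARS, which shares its start region, was second (0.17 ± 0.091).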
